A study of Mus musculus with 12 samples.

Results

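Control embryonic stem cells (ESC) and trophoblast stem cells (TSC) of the mouse were compared over the 1978 miRNA names of the count files. The comparison took in 6 of the 12 samples of the series: the 3 samples of E14, a mouse ESC line, and the 3 TSC samples whose titles and treatment labels read WT. Within each group replicates 2 and 3 held identical counts (0 of 1978 miRNAs differed) and were counted as 1 library. That left 2 distinct libraries a side, 4 of the 8 distinct libraries of the series. The series asked how miRNAs change when stem cells are paused by mTOR inhibition, and its other 6 samples are E14 ESC and TSC labelled as paused in that way. The labels give the TSC no line name, strain or derivation, and give neither cell type a medium or passage. They do not say that replicates were separate cultures, so the p-values below measure the spread between libraries, which may be technical.

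A miRNA is a short RNA that guides an Argonaute protein to messenger RNAs, mainly through its seed, the bases after the first one at its 5′ end. Each hairpin precursor can give a 5p and a 3p arm, and hairpins that lie together are often cut from 1 transcript, so clusters tend to move as units while miRNAs of different clusters can share a seed. ESC come from the inner cell mass and stand for the embryo proper, and TSC come from the trophectoderm and can form the cells of the placenta. The miR-290-295 cluster is the dominant miRNA cluster of mouse ESC and is also made in early trophoblast, the cluster of miR-302 and miR-367 is known from pluripotent and epiblast cells, the Sfmbt2 intron holds a rodent cluster known from placenta, and the Dlk1-Dio3 locus holds imprinted miRNAs made from the maternal allele.

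The sequences below are mature mouse miRNAs that carry the results, taken from the RefSeq table of build GRCm38.p6, with the seed (bases 2 to 8) in capitals. The table held a sequence for 1679 of the 1978 names, and for 164 of the 206 miRNAs tested. The first set shows 4 of the 3p arms of miR-290-295 beside miR-302d-3p: 3 of them and miR-302d-3p carry the seed AAGUGCU, and miR-291b-3p, the member that differed most between the cell types, carries another. The 3p arms miR-290a-3p (seed AAGUGCC) and miR-293-3p (seed GUGCCGC) also differ from it.
miR-291a-3p: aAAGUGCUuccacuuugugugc
miR-294-3p: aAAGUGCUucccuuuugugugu
miR-295-3p: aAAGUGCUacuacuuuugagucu
miR-302d-3p: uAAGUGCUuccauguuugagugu
miR-291b-3p: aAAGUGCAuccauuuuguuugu
The second set shows the seed AAAGUGC, carried by miRNAs of paralogous clusters that did not differ alike.
miR-17-5p: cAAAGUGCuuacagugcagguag
miR-20b-5p: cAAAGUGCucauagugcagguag
miR-106a-5p: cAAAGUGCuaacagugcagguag
The next set shows the seed AUUGCAC, which came from 4 clusters.
miR-25-3p: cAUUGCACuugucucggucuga
miR-92a-3p: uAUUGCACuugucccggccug
miR-363-3p: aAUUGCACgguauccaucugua
miR-367-3p: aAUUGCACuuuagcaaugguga
The fourth set shows miRNAs of the AGCAGC type, in which members of 1 seed went in opposite directions.
miR-322-5p: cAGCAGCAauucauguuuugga
miR-15b-5p: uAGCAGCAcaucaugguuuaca
miR-503-5p: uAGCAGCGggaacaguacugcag
The last set shows abundant or strongly different miRNAs with other seeds.
miR-290a-5p: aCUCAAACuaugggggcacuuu
miR-19a-3p: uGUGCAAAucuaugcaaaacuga
miR-130a-3p: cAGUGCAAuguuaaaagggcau
miR-301a-3p: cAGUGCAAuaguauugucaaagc
miR-376b-3p: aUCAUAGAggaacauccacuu
miR-708-5p: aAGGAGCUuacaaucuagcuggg
miR-210-3p: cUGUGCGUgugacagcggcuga
Compared base by base from the 5′ end, miR-291a-3p and miR-291b-3p differed at 4 of 22 positions, and 1 of these, U8A, fell in the seed (the base of miR-291a-3p comes first, and positions count from 1 at the 5′ end). The sequences of miR-17-5p and miR-106a-5p differed at 1 position outside the seed, U10A, so that their counts depend on reads that cover that base.

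The libraries were shallow. ESC replicates 1 and 2 held 19266 and 13607 miRNA counts, and TSC replicates 1 and 2 held 115492 and 18725. No count was seen for 1424 of the 1978 names in these 4 libraries, and 554 had at least 1. Levels are given as CPM, each count divided by the TMM-scaled library size from edgeR and multiplied by the same constant in every library. The TMM factors were 1.14 and 1.15 in ESC replicates 1 and 2 and 0.680 and 0.887 in TSC replicates 1 and 2. CPM thus do not sum to the same total in each library, and a CPM value is not a share of the counts. For the same share of counts, CPM are higher in a library with a lower factor. Differences are given as log2 fold changes, ESC minus TSC, with their standard errors (SE). The 10 most abundant miRNAs took 65.9% and 66.2% of the counts in ESC and 64.7% and 63.0% in TSC. Replicates of a group correlated at r = 0.963 in ESC and 0.960 in TSC across miRNAs on the log2(CPM + 100) scale, a description across miRNAs only. Since these are bulk samples, fewer cells that make a miRNA and less of it per cell cannot be told apart.

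The 2 lineages differed over most of the miRNAs that could be tested. Of the 206 miRNAs that passed the filter on low counts, 153 were called different (74.3% of those tested; adjusted p under 0.05, edgeR quasi-likelihood test, Benjamini-Hochberg over all 206), 69 higher in ESC (33.5%) and 84 higher in TSC (40.8%). The differences were large. An absolute log2 fold change of 3 or more was fitted for 63 of the 153, and the libraries of the 2 groups did not overlap for any of the 153, nor for 174 of the 206 tested (84.5%). In both ESC libraries, 23 miRNAs were counted that were at 0 in both TSC libraries, and the reverse held for 35. Of the 554 miRNAs counted in the control libraries, 225 had the higher pooled level in ESC and 329 in TSC. Of these 554, 56 were at 0 in TSC and 155 at 0 in ESC. The TSC libraries held more counts in all, and the part of depth in this was not tested. The direction of small differences depended on the scaling, because it moved the median log2 fold change over the tested miRNAs from -0.23 with TMM to 0.29 with median-of-ratios factors, 0.40 with the total count alone and 0.28 with TMM computed without miR-290-295. Under those 3 scalings the calls split into 87, 89 and 79 higher in ESC and 66, 63 and 61 higher in TSC, and 130 miRNAs (69 higher in ESC, 61 higher in TSC) were called in the same direction under all 4 scalings. The sign itself turned for 12 tested miRNAs, all at an absolute log2 fold change of at most 0.52 and none of them called.

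The filter asked for about 369 CPM in at least 2 of the 8 libraries, paused ones included. Of the 206 miRNAs, 86 passed it in ESC libraries and also in TSC libraries, 70 passed in ESC libraries only, 49 in TSC libraries only and 1 with 1 library of each. A miRNA that passed on 1 side only was chosen for being high there, so the counts of calls over a list of miRNAs are in part set by the filter. Among the 86 that passed on both sides, 11 were called higher in ESC and 42 higher in TSC, against 69 and 84 over all 206. These numbers are for TMM only, and the split of the 86 was not counted under the other scalings. Over all 206 the split turned towards ESC under each of them. Some calls among the 42, such as that of miR-34a-3p, were lost under each other scaling.

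**Figure D1:**
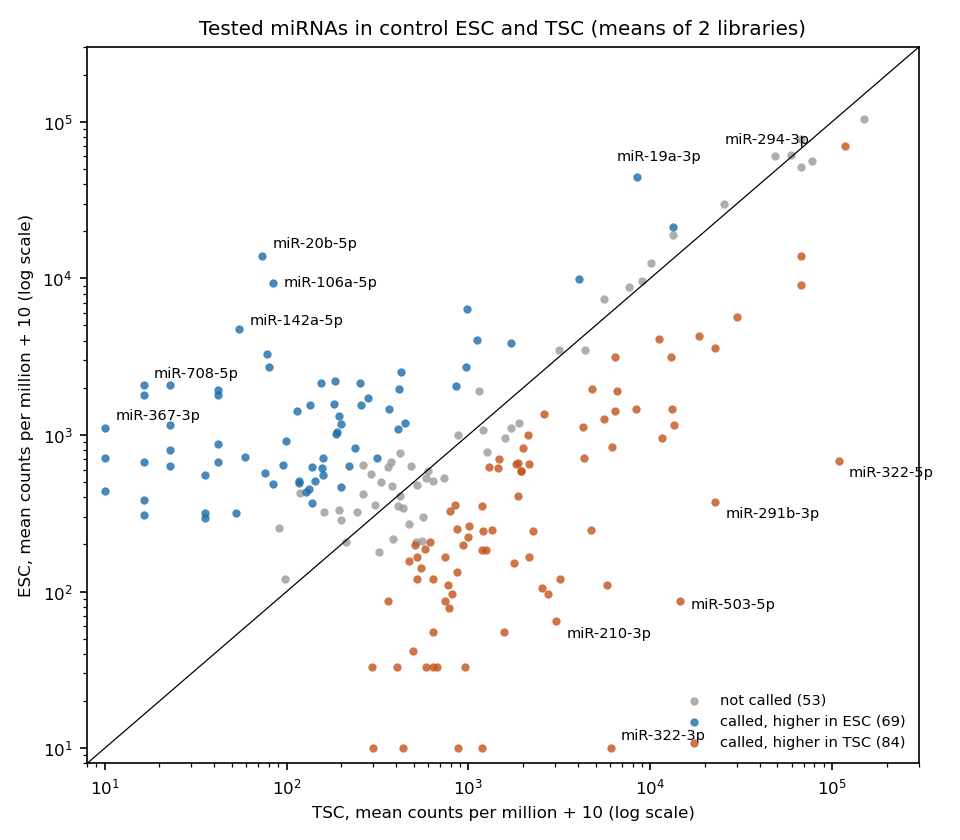
Mean level of each of the 206 tested miRNAs in control ESC (vertical axis) against control TSC (horizontal axis), both in CPM plus 10 on log scales, each a mean of 2 libraries, with the line of equal level. The 69 miRNAs called higher in ESC and the 84 called higher in TSC lie off the line, while abundant miR-290-295 members such as miR-294-3p lie near it; points at 10 had no count on that side.

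The 10 miRNAs with the highest fitted fold in ESC came from few sources. Fitted folds of miRNAs with 3 or fewer counts on a side depend on the prior count of the fit, so their place in this order is uncertain and a bound or a ratio is given for them. miR-367-3p of the cluster of miR-302 and miR-367 had 20 and 20 counts in ESC and 0 and 0 in TSC, at least 33.7-fold higher in ESC (against a floor of 3 counts over the TSC group; adjusted p = 4.96e-10). From the X-linked miR-106a-363 cluster came miR-20b-5p with 12579 and 15018 CPM in ESC and 127 and 0 CPM in TSC and miR-106a-5p with 9434 and 9330.5 CPM in ESC and 89.2 and 60.2 CPM in TSC, log2 fold changes of 7.06 ± 0.50 and 6.77 ± 0.52 (adjusted p = 2.81e-38 and 1.95e-33). In neither did the groups come near each other, and without TSC replicate 1, which held most of the TSC counts, the values rose to 11.95 and 7.43. The 11.95 depends on the prior count of the fit, since TSC replicate 2 held 0 CPM of miR-20b-5p. The same cluster gave miR-363-3p (32 and 33 counts in ESC and 1 and 0 in TSC, a ratio of 164 (95% counting interval 28.5 to 6595)) and miR-363-5p (11 and 14 counts in ESC and 0 and 0 in TSC, at least 21.1-fold higher).

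Both arms of miR-708, a hairpin hosted by the gene Tenm4, were seen almost only in ESC. miR-708-5p had 34 and 41 counts in ESC and 1 and 0 in TSC, a ratio of 189.8 (95% counting interval 33.0 to 7594), and miR-708-3p had 9 and 7 counts in ESC and 0 and 0 in TSC, at least 13.5-fold higher (adjusted p = 2.61e-20 and 3.35e-04; without TSC replicate 1 miR-708-3p was no longer called). The other 3 of the 10 were miR-142a-5p and miR-142a-3p, known as blood-cell miRNAs and described with the markers below, and miR-485-3p of the Dlk1-Dio3 locus (22 and 5 counts in ESC and 1 and 0 in TSC, a ratio of 68.3 (95% counting interval 11.3 to 2797)).

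On the TSC side, 6 of the 10 with the highest fitted fold came from the cluster of miR-322 and miR-503. By the floor of 3 counts, 2 of the 10 were only at least 2.5-fold (miR-542-5p of that cluster) and 2.9-fold (miR-669i) higher in TSC. The most abundant was miR-322-5p, the rodent counterpart of human miR-424, with 456 and 895 CPM in ESC and 118660 and 98292 CPM in TSC, a log2 fold change of -7.37 ± 0.43 (adjusted p = 1.08e-53). It was among the most abundant miRNAs of TSC and held 10 and 14 counts in ESC, and the value was -6.76 without ESC replicate 1. Outside that cluster, miR-483-3p, made from an intron of the imprinted growth factor gene Igf2 (chr7:142654924-142654996), had 0 and 0 counts in ESC and 82 and 22 in TSC, at least 13.7-fold higher in TSC. miR-210-3p, known as a target of the hypoxia factor HIF1, had 1 and 1 counts in ESC and 176 and 63 in TSC, a ratio of 47.2 (95% counting interval 12.9 to 392) (fitted log2 fold change -5.70, and -4.90 without TSC replicate 2). miR-291b-3p of the miR-290-295 cluster and miR-669i of the Sfmbt2 cluster completed the 10. The value for miR-669i rested on 10 and 12 TSC counts, and it lost its call without either ESC library or without TSC replicate 2.

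**Figure D2:**
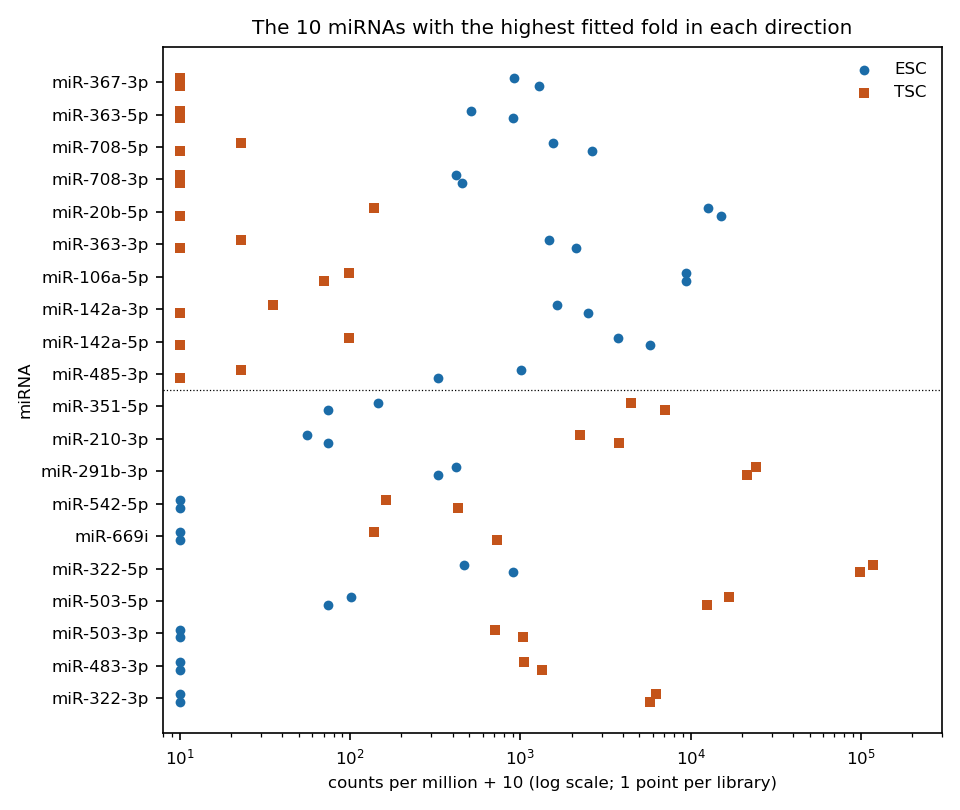
Level of the 10 miRNAs with the highest fitted fold in each direction, in CPM plus 10 on a log scale, with 1 circle per ESC library and 1 square per TSC library; points at 10 are libraries with no count. The groups do not overlap for any of the 20, and miR-322-5p reaches 118660 and 98292 CPM in the TSC libraries against 456 and 895 in ESC.

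The miR-290-295 cluster (chr7:3218626-3220841 of GRCm38, outside annotated genes) was the largest single source of miRNA counts in both cell types. Its 14 counted arms took 64.6% and 62.1% in the ESC libraries and 55.2% and 48.6% in the TSC libraries, so that ESC were higher by a ratio of 1.22 with no overlap (exact two-sided permutation p = 0.33, the smallest that 2 against 2 allow). Member by member the levels were alike in size. The most abundant, miR-290a-5p, had 108060 and 100720 CPM in ESC and 171150 and 127720 CPM in TSC, and miR-294-3p had 53595 and 59115 CPM in ESC and 93044 and 61696 CPM in TSC. Their log2 fold changes, -0.52 ± 0.29 and -0.46 ± 0.30, were not called and turned positive under another scaling. Of the 14 arms tested, 1 was called higher in ESC and 3 higher in TSC, with a median of 0.12, against -0.23 over all tested miRNAs; with median-of-ratios factors or the total count alone, 8 were called higher in ESC and 2 higher in TSC. The 5p arm of miR-291a (89736 and 64419 CPM in ESC and 79872 and 55737 CPM in TSC) and that of miR-292a (71096 and 52213 CPM in ESC and 61299 and 57904 CPM in TSC) overlapped between the groups.

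The miR-291b hairpin (chr7:3219482-3219560) stood apart from its cluster. Its 3p arm had 410.2 and 319.5 CPM in ESC and 24204 and 21308 CPM in TSC, a log2 fold change of -5.93 ± 0.46 (adjusted p = 1.91e-33), and its 5p arm had 1139 and 1150.3 CPM in ESC and 15847 and 11316 CPM in TSC, a log2 fold change of -3.57 ± 0.39 (adjusted p = 1.40e-17). The 2 arms were higher in TSC under each alternative tried. The other 2 calls in the cluster were small: miR-290a-3p was higher in ESC (957 and 1214 CPM in ESC and 382 and 421 CPM in TSC; 1.44 ± 0.45, adjusted p = 0.00255), and miR-291a-3p was called higher in TSC (68088 and 71896 CPM in ESC and 155350 and 78790 CPM in TSC; -0.74 ± 0.30, adjusted p = 0.0188). The call of miR-291a-3p was kept in 3 of the 14 alternatives: it was lost under each other scaling, without either ESC library (-0.51 (adjusted p = 0.146) and -0.57 (adjusted p = 0.0908)) and without TSC replicate 1, where the value was 0.074 (adjusted p = 0.766). The arms miR-290a-3p, miR-291b-5p and miR-291b-3p kept their calls in each of the 14 alternatives.

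The cluster of miR-302 and miR-367, known from pluripotent cells, was seen at low level and almost only in ESC (chr3:127545228-127545807). Its share was 0.285% and 0.5% in the ESC libraries and 0.0052% and 0% in the TSC libraries. Of its 10 arms 8 were counted, each higher in ESC and 5 of them at 0 in TSC, against 225 and 56 of all 554 counted miRNAs. Only 3 passed the filter, all through ESC libraries, and all 3 were called: miR-367-3p (above), miR-302b-3p (11 and 17 counts in ESC and 2 and 0 in TSC, a ratio of 35.4 (95% counting interval 8.93 to 307)) and miR-302d-3p (9 and 13 counts in ESC and 2 and 0 in TSC, a ratio of 27.8 (95% counting interval 6.84 to 244)).

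The miR-17-92 cluster and its 2 paralogues, whose miRNAs are known to promote cell proliferation, were higher in ESC to unequal extents. In miR-17-92 (chr14:115043671-115044506, within exons of the host transcript Mir17hg), 6 of 8 tested arms were called higher in ESC and 0 higher in TSC, with a median of 1.30; 7 of the 8 passed the filter on both sides. The cluster's share was 7.92% and 9.71% in the ESC libraries and 2.25% and 1.58% in the TSC libraries. miR-19a-3p led it with 37644 and 50743 CPM in ESC and 12204 and 4755 CPM in TSC, 2.35 ± 0.32 on the log2 scale (adjusted p = 5.57e-12; 3.46 without TSC replicate 1). miR-18a-5p had 2507 and 2556 CPM in ESC and 649.7 and 181 CPM in TSC (2.32 ± 0.43, adjusted p = 3.66e-07), and miR-92a-3p had 4329.6 and 3771 CPM in ESC and 1478 and 722 CPM in TSC (1.76 ± 0.38, adjusted p = 1.02e-05). Both rose without TSC replicate 1, to 4.02 and 2.73.

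miR-17-5p itself differed least among the called arms of the cluster, with 19506 and 23326 CPM in ESC and 16344 and 10172 CPM in TSC and a log2 fold change of 0.68 ± 0.32 (adjusted p = 0.0439). That call was lost with a replicate block, with a fold minimum of 1.5, with the filter at 10 CPM and without ESC replicate 2 (0.75 (adjusted p = 0.0612)), and the value was 1.32 without TSC replicate 1. The members of 1 transcript thus had log2 fold changes from 0.07 (miR-17-3p) to 2.35 (miR-19a-3p). Mature miR-19b-3p and miR-92a-3p can also come from miR-106a-363, and are counted here with miR-17-92.

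The miR-106a-363 cluster (chrX:52741693-52742567) was close to absent from TSC. Its share was 2.78% and 3.2% in the ESC libraries and 0.0156% and 0.00534% in the TSC libraries. All 10 of its arms were counted, each higher in ESC and 7 of them at 0 in TSC, against 225 and 56 of all 554 counted miRNAs. The 4 that passed the filter did so through ESC libraries only, and all 4 were called higher in ESC, with log2 fold changes of 6.77 to 7.83 and a median of 7.05 (6.91 with the ratio or bound in place of the fitted value for members with 3 or fewer counts on a side).

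The miR-106b-25 cluster, within the replication gene Mcm7 (chr5:138165321-138165818), was seen in both cell types. Its share was 2.26% and 2.07% in the ESC libraries and 0.84% and 0.753% in the TSC libraries. miR-25-3p had 10983 and 8947 CPM in ESC and 4866 and 3190.1 CPM in TSC (1.28 ± 0.34, adjusted p = 3.29e-04; 1.89 without TSC replicate 1), while miR-93-5p had 7109.6 and 7541 CPM in ESC and 6611 and 4514 CPM in TSC (0.37 ± 0.34, adjusted p = 0.305) and was not called. Of 5 tested arms (2 passed the filter through ESC libraries only and 1 through TSC libraries only), 2 were called higher in ESC and 0 higher in TSC, with a median of 0.66. Over all 206 tested, 33.5% were called higher in ESC and 40.8% higher in TSC. The second call, miR-93-3p (13 and 4 counts in ESC and 9 and 2 in TSC), was lost without ESC replicate 1 and without TSC replicate 1.

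The cluster of miR-322 and miR-503 (chrX:53047997-53054349), whose miRNAs are known to restrain the cell cycle, was the cluster with the widest gap in favour of TSC among the clusters listed. Its share was 0.0986% and 0.154% in the ESC libraries and 10.1% and 11.3% in the TSC libraries. All 12 counted arms were higher in TSC and 7 were at 0 in ESC, against 329 and 155 of all 554 counted miRNAs. Of the 8 tested, 7 passed the filter through TSC libraries only, and all 8 were called higher in TSC, with a median of -6.79 (-4.47 with members of 3 or fewer ESC counts at their ratio or bound). miR-322-3p had 0 and 0 counts in ESC and 494 and 96 in TSC, at least 77.7-fold higher in TSC. miR-503-5p had 2 and 1 counts in ESC and 1317 and 208 in TSC, a ratio of 201 (95% counting interval 68.6 to 975), and miR-503-3p had 0 and 0 counts in ESC and 55 and 17 in TSC, at least 9.48-fold higher. The groups were far apart for each of these.

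miR-351-5p, which carries the seed of the miR-125 family, had 137 and 63.9 CPM in ESC and 4433 and 7042 CPM in TSC (-5.70 ± 0.58, adjusted p = 1.95e-20; -4.93 without TSC replicate 2). Other members were lower in level. miR-542-3p had 91.1 and 256 CPM in ESC and 1096 and 1384 CPM in TSC (-2.87 ± 0.57, adjusted p = 1.97e-06; -2.05 without ESC replicate 1 and -3.50 without ESC replicate 2). The calls of miR-542-5p (0 and 0 counts in ESC and 12 and 7 in TSC) and miR-450b-3p (2 and 1 counts in ESC and 22 and 7 in TSC) were lost under other scalings and without single libraries, so 6 of the 8 calls did not depend on the scaling. The start of this cluster lies 305 kb from the end of miR-106a-363 on the same strand of the X chromosome, and the 2 clusters went in opposite directions with no overlap between the groups.

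At the imprinted Dlk1-Dio3 locus (chr12:109563692-109747960) all tested miRNAs were higher in ESC. Its share was 4.93% and 5.5% in the ESC libraries and 0.442% and 0.459% in the TSC libraries, a ratio of 11.6. The locus has 105 arms in the files. Of these 73 were counted, 71 of them higher in ESC, against 225 of all 554 counted miRNAs. Of the 33 tested, 32 passed the filter through ESC libraries only, and all 33 were called higher in ESC. The most abundant was miR-376b-3p with 5013 and 7669 CPM in ESC and 1452 and 482 CPM in TSC (2.52 ± 0.38, adjusted p = 2.94e-10; 3.94 without TSC replicate 1), and the next was miR-376c-3p with 2552 and 4026 CPM in ESC and 76.4 and 60.2 CPM in TSC (5.42 ± 0.56, adjusted p = 1.34e-19). miR-154-3p had 1777 and 2492 CPM in ESC and 229 and 60.2 CPM in TSC (3.46 ± 0.48), and miR-411-3p had 2324 and 2109 CPM in ESC and 229 and 120.4 CPM in TSC (3.44 ± 0.49, adjusted p = 5.58e-12 and 3.92e-11). Without TSC replicate 1 these 2 values were 5.28 and 4.40. In all 33 the fitted values ran from 1.88 (miR-434-3p) to 5.71 (miR-485-3p), with a median of 3.19. The direction was shared along the locus. Without TSC replicate 1 not every tested member was called higher in ESC, and the calls were not all in that direction. In each other alternative no tested member was called higher in TSC.

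The other imprinted loci on the list went the other way. All 5 tested arms of miR-296, miR-298, miR-335 and miR-483 were called higher in TSC, with a median of -1.93, and 4 of them passed the filter on both sides. miR-298-5p (chr2:174267504-174267585), from a transcript antisense to the imprinted gene Nesp, had 957 and 1278 CPM in ESC and 4191 and 4274 CPM in TSC (-1.93 ± 0.40, adjusted p = 6.09e-06). The call of miR-335-5p, from an intron of the imprinted gene Mest, was lost under most alternatives. That of miR-296-5p was lost in 4 of the 14 and that of miR-296-3p in 2, DESeq2 among them for both. Only miR-298-5p and miR-483-3p kept their calls in all 14.

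The Sfmbt2 cluster, listed here by names of the miR-669, miR-467, miR-466 and miR-297 groups, was seen in both cell types. GENCODE places the hairpins of 66 of the 80 arms on the list inside Sfmbt2 (chr2:10370510-10595253) and of 9 elsewhere, 3 arms have copies on both sides and 2 were not placed. Its share was 2.36% and 2.8% in the ESC libraries and 4.05% and 3.95% in the TSC libraries. Of 80 arms 41 were counted, 33 of them higher in TSC, against 329 of all 554 counted miRNAs. Of 20 tested, 14 were called higher in TSC and 0 higher in ESC (median -1.49), and 11 of the 20 passed the filter on both sides, 7 through TSC libraries only. Of the 18 tested arms placed inside Sfmbt2, 13 were called higher in TSC and 0 higher in ESC. The split depended on the scaling: 10, 9 and 8 were called higher in TSC and 1 higher in ESC with median-of-ratios factors, the total count alone and TMM without miR-290-295, 6 higher in TSC with DESeq2, and 9 of 24 without TSC replicate 1, 9 of 26 without ESC replicate 1 and 9 of 25 without ESC replicate 2. The most abundant called member, miR-669f-3p, had 3783 and 4346 CPM in ESC and 13707 and 8728 CPM in TSC (-1.48 ± 0.35, adjusted p = 5.17e-05; -0.86 without TSC replicate 1). miR-669c-5p had 1230.5 and 1278 CPM in ESC and 5630.5 and 5538 CPM in TSC (-2.15 ± 0.39, adjusted p = 2.16e-07), and miR-467e-5p had 1367 and 1469.9 CPM in ESC and 8739 and 3973 CPM in TSC (-2.20 ± 0.39, adjusted p = 6.16e-08; -1.25 without TSC replicate 1).

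Members of the same name family did not move as a block. miR-297c-5p had 0 and 3 counts in ESC and 134 and 56 in TSC, a ratio of 25.0 (95% counting interval 8.44 to 122). By contrast miR-466g (2871 and 4090.1 CPM in ESC and 3299 and 2949 CPM in TSC; 0.14 ± 0.37, adjusted p = 0.756) and miR-466f-3p (3464 and 3451 CPM in ESC and 4229 and 4454 CPM in TSC; -0.32 ± 0.36, adjusted p = 0.411) were not called, and the sign of miR-466f-3p turned under another scaling. Many hairpins of these names are near copies of each other, so how reads were shared out among them is uncertain.

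**Figure D3:**
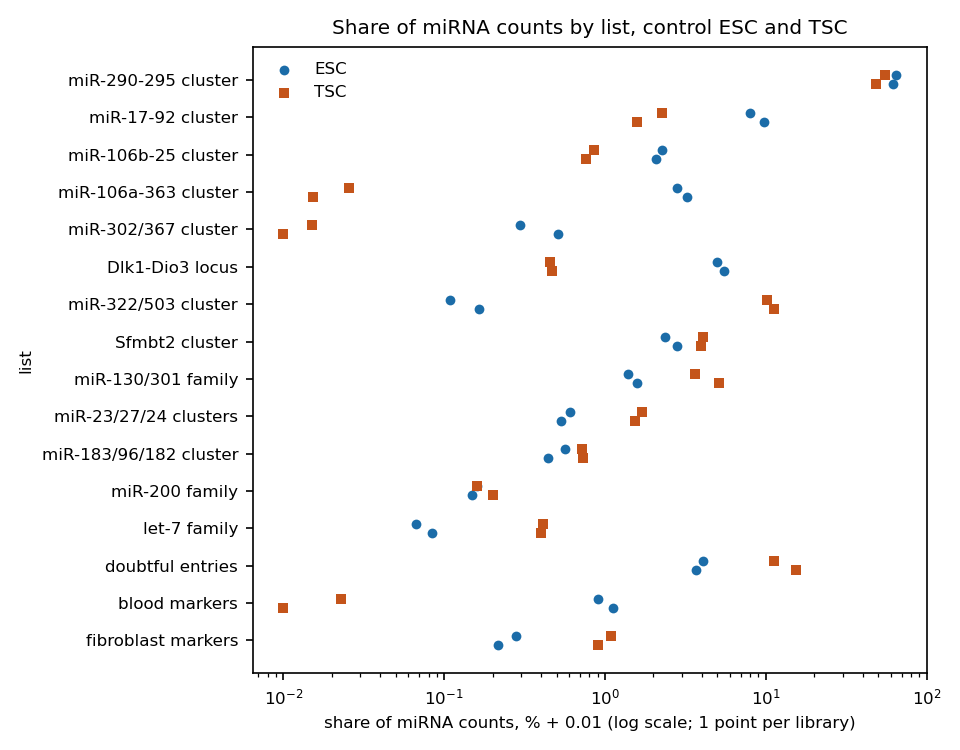
Share of a library's miRNA counts taken by 16 of the lists of clusters, families and markers, in percent plus 0.01 on a log scale, with 1 circle per ESC library and 1 square per TSC library. The miR-290-295 cluster takes 48.6% to 64.6% everywhere, while miR-106a-363 (2.78% and 3.20% in ESC) and the cluster of miR-322 and miR-503 (10.1% and 11.3% in TSC) sit at opposite ends.

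Counted by seed rather than by cluster, the pools differed in other ways. Between 92.8% and 93.2% of the counts of a control library came from miRNAs with a sequence in the table. The seed AAGUGCU of miR-291a-3p, miR-294-3p, miR-295-3p, miR-302b-3p and miR-302d-3p took 19.1% and 21.9% in the ESC libraries and 22.6% and 16.9% in the TSC libraries, and the groups overlapped. The seed AAAGUGC (miR-17-5p, miR-93-5p, miR-20b-5p, miR-106a-5p, miR-20a-5p and miR-106b-5p) took 5.96% and 6.72% in the ESC libraries and 1.67% and 1.43% in the TSC libraries, a ratio of 4.09. The 2 seeds hold the same letters shifted by 1 base, and both are known from pluripotent cells.

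The seed AUUGCAC, gathered from 4 clusters and from miR-32-5p and miR-92b-3p, took 2.12% and 1.97% in the ESC libraries and 0.514% and 0.47% in the TSC libraries, a ratio of 4.15. The seed GUGCAAA of miR-19a-3p and miR-19b-3p took 4.33% and 5.86% in the ESC libraries and 0.846% and 0.427% in the TSC libraries, a ratio of 8.01. In each of these the ESC libraries were above the TSC libraries with no overlap. The seed AGUGCAA of miR-301a-3p, miR-130a-3p and miR-130b-3p took 1.21% and 1.37% in the ESC libraries and 3.5% and 4.93% in the TSC libraries, and here TSC were higher by a ratio of 3.26. The seed AGCAGCA took 0.27% and 0.228% in the ESC libraries and 8.1% and 8.76% in the TSC libraries, higher in TSC by a ratio of 33.9. That pool lacks miR-16-5p, which 2 hairpins can give and which was at 0 in each control library. The whole AGCAGCA pool of either cell type is thus not known from these counts. No pair of groups of 2 can reach an exact permutation p under 0.33, so these shares are given as description.

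Within the AGCAGCA seed the members were split between the lineages. miR-322-5p held 9315 and 1633 of the TSC counts. miR-16-5p, at 0 in each control library, could not be read here or in the miR-15/16 family below. miR-15b-5p had 17 and 7 counts in ESC and 6 and 3 in TSC (775 and 447 CPM in ESC and 76.4 and 181 CPM in TSC) and was called higher in ESC (2.65 ± 0.61, adjusted p = 3.85e-05), though from few counts and with values of 2.02 to 3.41 when single libraries were left out. The 3 tested arms of the miR-15/16 family were all called higher in ESC (median 1.33), all 3 passed the filter through ESC libraries only, and 2 of the calls (miR-15b-3p and miR-497a-5p) were lost without ESC replicate 1.

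The family of miR-130 and miR-301 was split as well. miR-301a-3p, from an intron of Ska2, had 4557 and 6774 CPM in ESC and 35911 and 24016 CPM in TSC (-2.42 ± 0.34, adjusted p = 1.22e-11), and miR-130a-3p had 3737 and 3387 CPM in ESC and 14420 and 30998 CPM in TSC (-2.66 ± 0.35, adjusted p = 4.65e-13; -1.58 without TSC replicate 2). Both were higher in TSC with no overlap. miR-130b-3p, which differs from miR-130a-3p at 2 of 22 positions, was called higher in ESC with 2324 and 1789 CPM in ESC and 1146 and 542 CPM in TSC (1.16 ± 0.41, adjusted p = 0.00843), a call lost without ESC replicate 1 (2.17 without TSC replicate 1). Of the family's 5 tested arms, 1 of which passed the filter through ESC libraries only, 1 was called higher in ESC and 2 higher in TSC (median -0.24, which turns positive under each other scaling). Over all 206 tested these calls were 33.5% and 40.8%.

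The paralogous miR-23a/27a/24-2 and miR-23b/27b/24-1 clusters, known from endothelium and muscle among others, also differed. miR-23a-3p had 1641 and 1278 CPM in ESC and 16306 and 10172 CPM in TSC (-3.18 ± 0.38, adjusted p = 3.72e-15; -2.54 without TSC replicate 1), and miR-27a-3p had 319 and 1086 CPM in ESC and 4306 and 4334 CPM in TSC (-2.70 ± 0.44, adjusted p = 4.55e-09; -3.57 to -1.83 when single libraries were left out). miR-24-2-5p had 2 and 0 counts in ESC and 141 and 22 in TSC, a ratio of 32.2 (95% counting interval 8.77 to 268). These 3, all of the miR-23a cluster, were called higher in TSC, while miR-23b-3p (2461 and 1342 CPM in ESC and 1605 and 662 CPM in TSC; 0.64 ± 0.40, adjusted p = 0.14) and miR-27b-3p (501 and 831 CPM in ESC and 369 and 361 CPM in TSC; 0.81 ± 0.50, adjusted p = 0.131) were not called; with median-of-ratios factors or the total count alone those 2 were called higher in ESC. miR-23b-3p was also called without TSC replicate 1 (1.79 (adjusted p = 0.00257)) and without ESC replicate 2 (1.23 (adjusted p = 0.0334)), and miR-27b-3p without TSC replicate 2 (1.23 (adjusted p = 0.0332)).

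Of miRNAs known to rise with differentiation, 7 of the 8 tested arms of the let-7, miR-29 and miR-34 families were called higher in TSC, but 5 of the 8 (all 4 of let-7 and 1 of miR-29) passed the filter through TSC libraries only, and the call of miR-34a-3p was lost in 9 of the 14 alternatives, each other scaling included. The let-7 family took 0.0571% and 0.0735% in the ESC libraries and 0.402% and 0.39% in the TSC libraries. Its 16 counted arms were all higher in TSC, 9 of them at 0 in ESC, against 329 and 155 of all 554 counted miRNAs. Of 4 tested, each through TSC libraries only, 3 were called higher in TSC, led by let-7g-5p with 4 and 2 counts in ESC and 181 and 33 in TSC (-3.75 ± 0.56, adjusted p = 2.94e-10). miR-29a-3p, known to target DNA methyltransferases and collagens, had 91.1 and 383 CPM in ESC and 5554 and 3912 CPM in TSC (-4.45 ± 0.52, adjusted p = 5.34e-16; -5.48 to -3.45 when single libraries were left out). miR-34a-5p, a known target of p53, had 4102 and 4474 CPM in ESC and 19452 and 17395 CPM in TSC (-2.11 ± 0.35, adjusted p = 7.77e-09).

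Epithelial miRNAs were called in both directions. miR-203-3p, known from stratified epithelium, had 1 and 2 counts in ESC and 241 and 40 in TSC, a ratio of 37.0 (95% counting interval 12.5 to 181) in favour of TSC. miR-205-5p (13 and 5 counts in ESC and 11 and 4 in TSC) was called higher in ESC (1.53 ± 0.64, adjusted p = 0.0245), a call lost without ESC replicate 1 and without TSC replicate 1 (2.15 without TSC replicate 2). In the miR-200 family 2 of 5 tested arms were called higher in TSC, near the 40.8% over all 206 tested, with a median of 0.04. Of the 5, 2 passed the filter through ESC libraries only. One call was miR-200a-3p, with 137 and 63.9 CPM in ESC and 561 and 963 CPM in TSC. Its log2 fold change was -2.65 ± 0.68 (adjusted p = 2.03e-04), and -1.95 without TSC replicate 2. The other was miR-429-3p, whose call was lost under each other scaling. All 4 tested arms of the miR-183-96 cluster were called higher in TSC, 1 of them after passing the filter through TSC libraries only. With median-of-ratios factors or without ESC replicate 1 the calls were 1, and they were 0 with the total count alone, with TMM without miR-290-295, with DESeq2, without a filter, without ESC replicate 2 or without TSC replicate 1.

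Markers of other cell types were checked in the same libraries, and their part in the differences was not tested. The blood list took 0.893% and 1.12% in the ESC libraries and 0.013% and 0% in the TSC libraries: of its 12 arms 5 were counted, and miR-142a-5p (3737 and 5752 CPM in ESC and 89.2 and 0 CPM in TSC; adjusted p = 3.08e-24), miR-142a-3p (36 and 39 counts in ESC and 2 and 0 in TSC) and miR-150-5p (2461 and 1406 CPM in ESC and 63.7 and 0 CPM in TSC; 5.19 ± 0.61, adjusted p = 9.24e-16; 9.14 without TSC replicate 1 and 5.77 without ESC replicate 2) made up nearly all of it. All 3 were called higher in ESC and had passed the filter through ESC libraries only. The 9.14 of miR-150-5p depends on the prior count of the fit, since TSC replicate 2 held 0 CPM of it. The erythroid miR-451a and the myeloid miR-223 arms were at 0 in each control library. miR-142 is known from mouse ESC as well as from blood cells.

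The fibroblast list, which bears on feeder cells, took 0.27% and 0.206% in the ESC libraries and 1.08% and 0.897% in the TSC libraries. Of its 21 arms 14 were counted, 6 of them higher in ESC and 8 higher in TSC. Most of the list's counts over the control libraries were of miR-22-3p, with 1003 and 895 CPM in ESC and 14127 and 8968 CPM in TSC. Its log2 fold change was -3.61 ± 0.40 (adjusted p = 2.78e-17), and -2.99 without TSC replicate 1. miR-143-3p overlapped between the groups (729 and 511 CPM in ESC and 701 and 241 CPM in TSC), miR-199b-5p had 0 and 0 counts in ESC and 7 and 2 in TSC and miR-214-3p had 0 and 0 counts in ESC and 7 and 0 in TSC, and both miR-199a arms were at 0 in each control library. The muscle, neural and liver lists took at most 0.0104%, 0.0107% and 0.0294% of a library, with no member tested and miR-124, miR-137, miR-122 and miR-375 at 0.

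A list of later-registered names whose standing as miRNAs has been questioned moved with the TSC group. Its share was 4.03% and 3.69% in the ESC libraries and 11.2% and 15.3% in the TSC libraries, and 9 of its 10 tested names were higher in TSC (median -2.49); 8 of the 10 passed the filter on both sides and 2 through TSC libraries only. miR-2137 had 9343 and 8819 CPM in ESC and 56993 and 77706 CPM in TSC (-2.89 ± 0.33, adjusted p = 2.75e-16; -2.22 without TSC replicate 2), and miR-5126 had 15814 and 12142 CPM in ESC and 71095 and 64404 CPM in TSC (-2.27 ± 0.32, adjusted p = 2.29e-11). The RefSeq sequences of these names are 85.7% and 100% G or C. miR-3473b was the exception with 3372 and 4346 CPM in ESC and 446 and 2949 CPM in TSC (1.42 ± 0.40, adjusted p = 8.05e-04), and its call rested on 1 library: without TSC replicate 1 it was 0.62 (adjusted p = 0.166), and without TSC replicate 2 it was 3.53.

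Arm use was compared within hairpins, where the scaling drops out. In 25 hairpins both arms together held at least 20 counts in each control library, and the ratio of 5p to 3p, with 0.5 added to each count, did not overlap between the groups in 13 of them (52.0%). With nothing added, the 5p share did not overlap in 14 (56.0%). Either way 12 did not overlap: miR-23a, with 0 counts of its 5p arm in ESC replicate 2, was apart only with 0.5 added, and miR-17 and miR-191 only without. In 1 hairpin, miR-291b, the dominant arm changed: the 5p arm held 73.5% (exact 95% binomial interval 55.6 to 87.1) and 78.3% (56.3 to 92.5) of the hairpin's counts in ESC, and 39.6% (37.9 to 41.3) and 34.7% (30.7 to 38.9) in TSC. In miR-291a the 5p arm held 56.9% and 47.3% in ESC and 34.0% and 41.4% in TSC. These were the only 2 of the 25 hairpins in which the intervals of both ESC libraries lay apart from those of both TSC libraries. The intervals cover counting error only. The 5p arms of miR-291a and miR-291b differ at 2 of 22 positions, the first and the last (C1G and U22C), so that their counts depend on how reads were assigned between the copies.

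Among the hairpins with the greatest change of arm ratio, miR-130a (2.45 on the log2 scale, ESC minus TSC, with 0.5 added to each count) used the 5p arm relatively more in ESC, and miR-669c (-2.21) and miR-290a (-1.90) relatively more in TSC. miR-23a (2.05) had a 5p share of 5.26% and 0% in ESC and 0.621% and 1.17% in TSC, which overlap. miR-19a (-2.35) had at most 1 count of its 5p arm in any control library and overlapped. In 4 hairpins of miR-290-295, namely miR-291a, miR-291b, miR-294 and miR-295, the 5p share was higher in ESC, and in miR-290a and miR-292a it was higher in TSC.

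**Figure D4:**
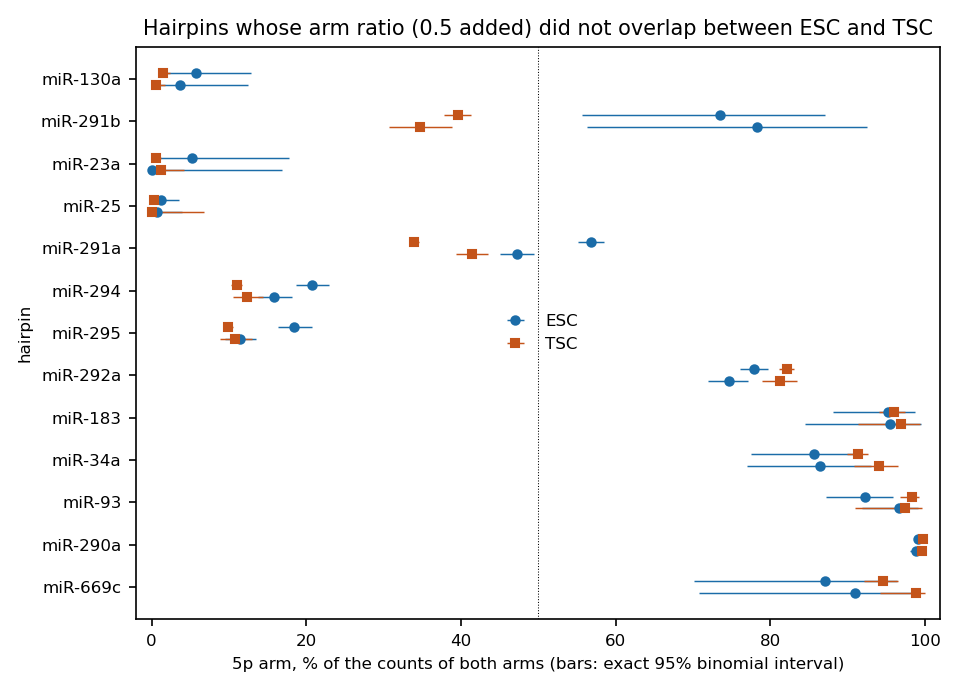
Share of the 5p arm among the counts of both arms, in percent, for the 13 hairpins whose arm ratios, with 0.5 added to each count, did not overlap between control ESC (circles) and TSC (squares), 1 point per library with its exact 95% binomial interval. The plotted shares have nothing added, and those of miR-23a overlap. miR-291b crosses the 50% line, from 73.5% and 78.3% in ESC to 39.6% and 34.7% in TSC.

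Positions were found for 154 of the 206 tested miRNAs. The mature sequences of miRNAs higher in ESC, higher in TSC and not called had the same median length of 22 bases and the same median GC content of 45.5%.

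The same contrast was then read in the paused cells, which share no library with the control cells. There 158 of 206 were called (76.7%), and the log2 fold changes of the 2 states correlated at r = 0.840 (Spearman 0.858) across the 206 miRNAs, a description with no test. Of the 153 control calls, 141 had the same sign in paused cells, 123 were called in the same direction, 3 were called in the opposite direction and 27 were not called. Of the 20 miRNAs with the highest folds all 20 kept their sign and 18 were called. Paused libraries counted in the filter too, so a miRNA that passed in 1 lineage only was in part chosen for this sign. That holds for the 4 tested arms of miR-106a-363 and for 7 of the 8 of the miR-322 and miR-503 cluster. The shared signs and calls are thus given as description. For miR-367-3p the sign in paused cells rested on 4 counts in ESC and 0 in TSC. miR-322-5p was -6.21 in paused cells (46 and 43 counts in paused ESC and 992 and 1690 in paused TSC), miR-291b-3p was -7.19, and miR-19a-3p was 2.69 (adjusted p = 1.10e-47, 3.07e-46 and 2.80e-15).

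A test of the difference between the 2 lineage differences called 54 of 206 miRNAs (26.2%). The direction of that count depends on the scaling (24 positive and 30 negative with TMM, 40 and 17 with the total count alone). Among members of the Sfmbt2 list, miR-466f-3p went from -0.32 in control to -4.14 in paused cells (adjusted p of the difference = 9.14e-10) and miR-669f-3p from -1.48 to -4.91 (adjusted p = 8.83e-09). miR-5126 went the other way, from -2.27 to 0.14 (adjusted p = 1.91e-06), as did miR-2137, from -2.89 to -0.68 (adjusted p = 1.66e-05).

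**Figure D5:**
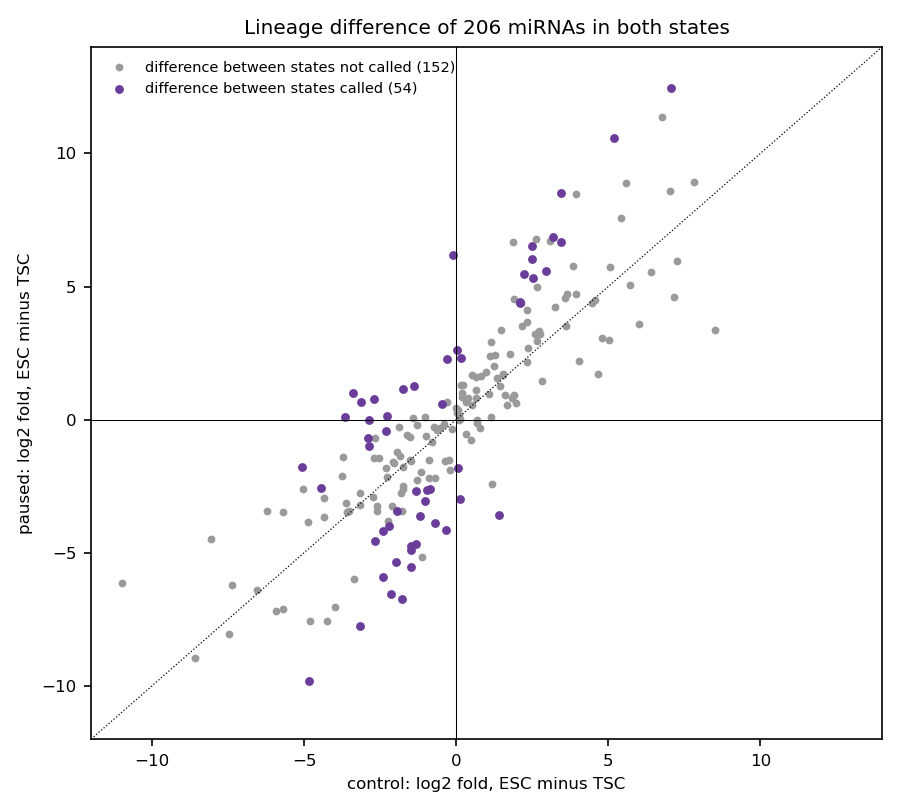
Log2 fold change, ESC minus TSC, of 206 miRNAs in control cells (horizontal axis) and in paused cells (vertical axis), with the line of equal value; purple points are the 54 whose difference between the states was called. Most points lie in the lower left and upper right parts, where 87.9% of the miRNAs have the same sign in both states.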

How the data were processed

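Small RNA was extracted with the miRNeasy kit and made into libraries from 10 ng with the SMARTer smRNA-seq kit (12 amplification cycles), then read as single 75-base reads, per the labels' protocols. The authors deposited 1 table of whole-number counts per miRNA name and sample. The aligner, counter and strand setting were not given in the sources used here, and the build is GRCm38 per the submitters' processing notes. The tables carry no molecular identifiers. By the RefSeq table more than 1 hairpin can give 53 arms, which held 354 of 167090 control counts in all. Of the 53, 45 were at 0 in all control libraries, miR-16-5p, miR-26a-5p and let-7c-5p among them, and could not be analysed here. miR-92a-3p (282 counts) and miR-19b-3p (32 counts) were tested. So was miR-466f-3p (536 counts), which has 4 hairpins by GENCODE and is outside the 53.

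Identical count sets were used once. The 8 distinct libraries of 4 groups (control and paused ESC and TSC) were fitted together with edgeR 4.0.16 in R 4.3.3 (TMM scaling, filterByExpr with a minimum count of 10, quasi-likelihood test, 4 residual degrees of freedom, Benjamini-Hochberg over 206 miRNAs, adjusted p under 0.05). The prior degrees of freedom were infinite, so each p-value rested on a spread pooled over miRNAs and not on that miRNA's own spread. The script was tested on simulated data. DESeq2 1.42.0, 3 other scalings, other filters, every deposited file as a library, the control groups alone, a fold minimum, a replicate block and each library left out were the alternatives. A miRNA at 0 in a group has a bound against 3 counts over that group; with 1 to 3 counts a ratio with its 95% interval is given, both for counting error only.

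Members, lists and comparisons were chosen with earlier results of these data known. Named miRNAs are the 10 called with the highest fold each way (at least 100 CPM in a group, no overlap), the 10 most abundant of each group, up to 6 most abundant of each of 31 lists, the 5 highest and 5 lowest called differences between states and the hairpins with the 3 highest and 3 lowest arm changes; others, such as miR-291b-5p, miR-290a-3p and members whose calls complete a small count, were named after their values were seen. Positions come from GENCODE M21 and RefSeq tables of GRCm38, and figures were drawn with matplotlib 3.10.9.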

Additional observations from a re-analysis of the deposited data

Results flagged for a closer look

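The lineage difference of 35 named miRNAs differed between control and paused cells by the test of that difference itself (edgeR interaction term, adjusted p from 2.93e-13 to 0.0472). Values are the control log2 difference, ESC minus TSC, less the paused one. In 26 of the 35 the sign of the lineage difference was the same in both states. For 11 of them a group held 3 or fewer counts, so that the fitted size is not a bound. The split of signs depends on the scaling, as given with the control and paused comparison.

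Positive values, 15 in all, were found for 8 Sfmbt2-list members, whose values were all further towards TSC in paused cells: 4.96 for miR-669f-5p and 4.96 for miR-297c-5p (both at 0 counts in paused ESC), 4.38 for miR-669c-5p, 3.82 for miR-466f-3p, 3.43 for miR-669f-3p, 3.13 for miR-466g (which was 0.14 and not called in control cells), 2.45 for miR-466d-3p and 1.80 for miR-467e-5p. The others were 5.01 for miR-3473b, 4.58 for miR-188-5p (0 counts in paused ESC), 1.90 for miR-130a-3p, 1.75 for miR-301a-3p, 1.70 for miR-335-5p, 1.49 for miR-298-5p and 1.37 for miR-21a-5p. miR-3473b was 1.42 in control and -3.59 in paused cells.

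Negative values were found for 20. From the Dlk1-Dio3 locus, whose excess in ESC was greater in paused cells, came miR-154-3p at -5.06 (0 counts in paused TSC), miR-411-3p at -3.24 (2 counts there), miR-376b-3p at -2.79, miR-495-3p at -2.63 (3 counts there) and miR-300-3p at -2.29. miR-20b-5p at -5.40 and miR-150-5p at -5.38 also had 0 counts in paused TSC. miR-1949 was -6.30 (-0.11 in control and 6.19 in paused cells, 3 counts in paused TSC) and miR-26b-5p was -4.40 (1 count in control ESC).

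Among epithelial miRNAs, miR-203-3p was -3.30 (3 counts in control ESC), miR-96-3p -2.92, miR-429-3p -2.66 and miR-200b-3p -2.58. Among names of doubtful standing, miR-6240 was -2.88, miR-5126 -2.41 and miR-2137 -2.21. The rest were miR-31-5p at -2.13, miR-542-3p at -1.90, miR-29a-3p at -1.87 and miR-294-3p at -1.06.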

How the results depend on the processing

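Over the alternatives other than leaving out a library, the 153 control calls (69 higher in ESC, 84 higher in TSC) became 126 with DESeq2 (74 and 52), 153 with median-of-ratios factors (87 and 66), 89 and 63 with the total count alone, 140 with TMM without miR-290-295 (79 and 61), 164 without a filter (90 and 74), 169 at 10 CPM (80 and 89), 169 with every file counted (77 and 92), 143 with a fold minimum of 1.5 (65 and 78) and 100 in the control groups alone (46 and 54, with 131 tested). Leaving out each control library in turn gave 122 to 155 calls, 62 to 78 higher in ESC and 60 to 77 higher in TSC. Of the 153, 78 were called in each of the 14 alternatives, 55 lost the call in at least 1 and 50 were not tested in at least 1. With the replicate number as a block the calls were 146 (66 and 80). Same-numbered ESC and TSC libraries share only a number (correlation of deviations -0.07 over 206 miRNAs), so this pairing is not part of the design. Signs turned for several miRNAs with small values when single libraries were left out. Without TSC replicate 1 miR-291a-3p was 0.074 and miR-148a-3p was 2.56, against -0.74 and -0.0086. Over all 4 libraries left out, the ranges were -0.72 to 0.074 and -0.049 to 2.56. Among others whose sign turned were miR-294-3p (-0.34 to 0.11), miR-295-3p (-0.37 to 0.28) and miR-106b-3p (-0.26 to 1.14). The difference between states, 54 calls (24 positive, 30 negative), became 24 with DESeq2 (15 and 9) and 40 positive and 17 negative with the total count alone. The cause of these moves was not tested. Arm ratios with 0.5 added to each count did not overlap in 13 of 25 hairpins at 20 counts and 9 of 16 at 50; with nothing added, an alternative chosen after seeing the data, the number at 20 counts was 14, 12 of them among the 13. Depth limits the rest: 3 counts in the shallowest control library are worth about 192 CPM, so absence below that was not detectable there.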

Other observations

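Of the 153 miRNAs called in the control comparison, 23 belonged to no list, 8 of them higher in ESC and 15 higher in TSC. The 3 described here were chosen after their values were seen. miR-33-5p, from an intron of the cholesterol regulator gene Srebf2 (chr15:82198122-82198190), had 91.1 and 128 CPM in ESC and 2064 and 4334 CPM in TSC, a log2 fold change of -4.80 ± 0.61 (edgeR adjusted p = 7.64e-14). miR-101a-3p, known to target the Polycomb gene Ezh2, had 1458 and 1469.9 CPM in ESC and 11006 and 5718 CPM in TSC (-2.54 ± 0.38, adjusted p = 2.94e-10). On the ESC side, miR-135b-5p had 2369.9 and 3004 CPM in ESC and 140.1 and 0 CPM in TSC (4.58 ± 0.53, adjusted p = 6.22e-16). The groups did not overlap for any of the 3, and each kept its call in all 14 alternatives. Their values moved to -3.82 without TSC replicate 2 (miR-33-5p), -1.72 without TSC replicate 1 (miR-101a-3p) and 9.58 without TSC replicate 1 (miR-135b-5p). The last depends on the prior count of the fit, since TSC replicate 2 held 0 CPM of miR-135b-5p.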
